A study of Mus musculus with 6 samples.

Results

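The IL-6 family genes described here were 5 cytokine genes (*Il6*, *Osm*, *Lif*, *Clcf1* and *Il11*) and 4 receptor genes (*Il6ra*, *Il6st*, *Lifr* and *Osmr*), chosen by name. They were 9 of the 55335 mouse genes in the table of values. These genes, the gene lists and the tests were chosen with earlier results of these data known. Counts set against the shares of all tested genes are therefore descriptions only. RNA-seq had been performed on 6 libraries of bone marrow-derived macrophages (BMDMs), which are macrophages grown from bone marrow cells in medium with macrophage colony-stimulating factor (M-CSF). All 6 libraries came from BMDMs of *Cd177* WT genotype, which had been cultured for 24 h with neutrophils taken by magnetic sorting from the injured spinal cord of mice at 3 days post-injury (dpi), and then isolated by flow cytometry. In 3 libraries the neutrophils were labelled *Cd177* WT and in the other 3 they were labelled *Cd177* KO, that is, from mice lacking this neutrophil surface protein. No library of BMDMs without neutrophils was analysed here, so each difference lies between 2 co-cultures. According to the methods all animals were male and the knockout donors were *Cd177*-/- mice. The sources used here do not say whether the 3 libraries of a group were separate cultures or animals, so p-values measure the spread between these libraries, which may be technical.

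Cytokines of the IL-6 family signal through gp130, the protein encoded by *Il6st*. IL-6 and IL-11 first bind their own receptor chain (IL-6Rα, from *Il6ra*, and IL-11Rα). LIF and oncostatin M instead use gp130 together with the LIF receptor or the oncostatin M receptor. JAK kinases bound to these chains activate STAT3 and other STAT proteins, and SOCS3 shuts the signal off. Macrophages are a known source of IL-6 and oncostatin M in injured tissue.

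Values were FPKM (fragment counts corrected for transcript length and library total), as deposited. The limma test was applied to log2(FPKM + 0.5) in all 13367 genes whose mean reached 0.5 FPKM. On this scale the change of a weakly expressed gene comes out too small. All log2 fold changes are the KO mean minus the WT mean on this scale, and p-values were adjusted over all 13367 genes. The low values implied a depth of about 17800000 to 20100000 fragments per library. The median log2 fold change of all tested genes was 0.19, and rescaling the libraries by the median of ratios moved it to -0.01, so changes near these sizes depend on the scaling.

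*Cd177* itself ran against the labels. It stood at 0.544, 0.309 and 0.521 FPKM in the WT-labelled libraries and at 1.79, 1.84 and 2.28 FPKM in the KO-labelled ones. The log2 fold change was 1.37, with a limma adjusted p of 0.000827. The deletion lies in the neutrophils and not in the BMDMs that were sequenced. Of 9 tested neutrophil markers, 8 were also higher in the KO-labelled libraries and 1 was lower. Among the higher ones, *Ngp* averaged 12.9 FPKM (labelled WT) and 107 FPKM (labelled KO), and *Ltf* 3.92 and 37.0 FPKM. Which cells the *Cd177* RNA came from was not tested, and neither was whether the labels are right. Every direction given here follows the labels.

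The cells carried macrophage transcripts. The 10 macrophage markers summed to between 6745 and 8117 FPKM in the WT-labelled libraries and between 7549 and 8243 FPKM in the KO-labelled ones. *Lyz2*, at 4462 to 6588 FPKM, made up most of each sum. Of the 10, 2 were lower (*Fcgr1* and *Cd14*) and 3 higher (*Adgre1*, *Mertk* and *Mrc1*), against 10.5% and 27.1% of all tested genes. *Cd14* averaged 1010 and 99.4 FPKM and *Mrc1* 28.0 and 221 FPKM, so single markers differed widely. The 12 neutrophil markers summed to 186.3 to 246.5 FPKM and 525.1 to 537.0 FPKM. Of the 9 that were tested, 8 were higher in the KO-labelled libraries. The other, *Mmp8*, was lower there, at 21.9 FPKM (labelled WT) and 9.80 FPKM (labelled KO) on average. *Ly6g*, the gene of a neutrophil surface protein, was at 0 in the WT-labelled libraries and at 0.403 to 0.660 FPKM in the KO-labelled ones. The 10 fibroblast and stromal markers summed to 790.7 to 937.4 FPKM and 1250 to 1258 FPKM, with 3 lower (*Col3a1*, *Pdgfrb* and *Dcn*) and 1 higher (*Acta2*) of 9 tested. *Acta2* averaged 322 FPKM in the WT-labelled libraries and 693 FPKM in the KO-labelled ones. *Col1a1* averaged 306 and 325 FPKM and did not pass, a level near that of the macrophage marker *Csf1r*, at 263 and 283 FPKM. The 6 endothelial markers reached at most 2.71 FPKM in sum. The 9 lymphocyte markers summed to 1.501 to 2.52 FPKM against 15.3 to 15.7 FPKM, and the 8 spinal cord markers to 15.9 to 18.2 FPKM against 20.1 to 21.9 FPKM, with *Aqp4* and *Snap25* at 0 in all 6 libraries. The part of other cells in the results that follow was not tested, and fewer cells of a type cannot be told apart from less RNA per cell in such bulk samples.

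The regions upstream of the 3 cytokine genes with a start in the RefSeq table are shown because these genes had the falls described next. Each sequence holds the 250 bases before an annotated RefSeq start (GRCm38.p6), read 5′ to 3′ along the gene, with matches to the searched motifs in capitals. The *Il6* region is chr5:30012864-30013113 on the plus strand, the *Lif* region chr11:4257318-4257567 on the plus strand, and the *Il11* region chr7:4778142-4778391 on the minus strand.
*Il6*: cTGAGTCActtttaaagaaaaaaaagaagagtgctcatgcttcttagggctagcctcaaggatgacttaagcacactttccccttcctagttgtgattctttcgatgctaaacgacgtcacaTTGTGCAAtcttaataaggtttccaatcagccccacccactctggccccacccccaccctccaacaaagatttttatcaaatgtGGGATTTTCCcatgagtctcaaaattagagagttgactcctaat
*Lif*: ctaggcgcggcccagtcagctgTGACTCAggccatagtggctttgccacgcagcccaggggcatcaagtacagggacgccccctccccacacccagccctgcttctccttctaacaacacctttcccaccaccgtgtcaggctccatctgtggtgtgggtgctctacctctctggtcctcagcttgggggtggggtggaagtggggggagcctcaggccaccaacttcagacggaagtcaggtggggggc
*Il11*: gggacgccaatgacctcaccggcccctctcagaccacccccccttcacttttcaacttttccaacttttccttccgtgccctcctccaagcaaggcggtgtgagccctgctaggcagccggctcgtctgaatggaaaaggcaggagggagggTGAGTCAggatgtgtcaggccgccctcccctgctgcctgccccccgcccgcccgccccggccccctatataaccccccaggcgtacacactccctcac

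The *Il6* region held an AP-1 match (TGAGTCA) 249 to 243 bases upstream of the start, a C/EBP match (TTGTGCAA) 128 to 121 bases upstream and an NF-κB match (GGGATTTTCC) 44 to 35 bases upstream. The *Lif* region held 1 AP-1 match (TGACTCA), 228 to 222 bases upstream. The *Il11* region held 1 AP-1 match (TGAGTCA), 98 to 92 bases upstream. Both strands were searched for TGANTCA (AP-1), TTNNGCAA (C/EBP), TTCNNNGAA (STAT), the interferon response element and the NF-κB motif. Of all 32807 such regions in the table, 6.75% held AP-1, 9.57% C/EBP, 7.02% STAT, 2.97% the interferon response element and 3.90% NF-κB. None of these letters occurred in the regions of *Il6ra*, *Il6st*, *Lifr* and *Osmr* or at a further start of *Il11*, which says nothing of the factors themselves. In all, 7 of the 9 genes had a region in the table, and *Osm* and *Clcf1* did not.

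Most of the cytokine genes were lower and most of the receptor genes higher. Of the 5 cytokine genes, 4 were lower in BMDMs labelled as cultured with *Cd177* KO neutrophils (*Il6*, *Osm*, *Lif* and *Il11*), none was higher, and *Clcf1* did not pass. Of the 4 receptor genes, 3 were higher (*Il6ra*, *Il6st* and *Lifr*), none was lower, and *Osmr* did not pass. Thus 7 of 9 genes passed an adjusted p of 0.05, against 37.6% of all tested genes, with 4 lower against 10.5% and 3 higher against 27.1%. Without KO replicate 1, 1 receptor gene (*Il6ra*) was higher, and without KO replicate 2 there were 2 (*Il6ra* and *Lifr*). The groups of libraries did not overlap for 8 of the 9 genes, against 51.9% of all tested genes. *Il6*, *Osm* and *Il11* had log2 fold changes below -2, which 1.44% of all tested genes shared. Under the study's threshold (a fold above 2, here of FPKM + 0.5, and an unadjusted p under 0.05), 4 cytokine genes were lower against 4.43% of all tested genes, and *Il6ra* and *Lifr* were higher against 6.68%. All 9 genes passed the filter on low values, but *Il6* and *Il11* passed only through the WT-labelled libraries and *Lifr* only through the KO-labelled ones, so these 3 had to differ.

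**Figure D1:**
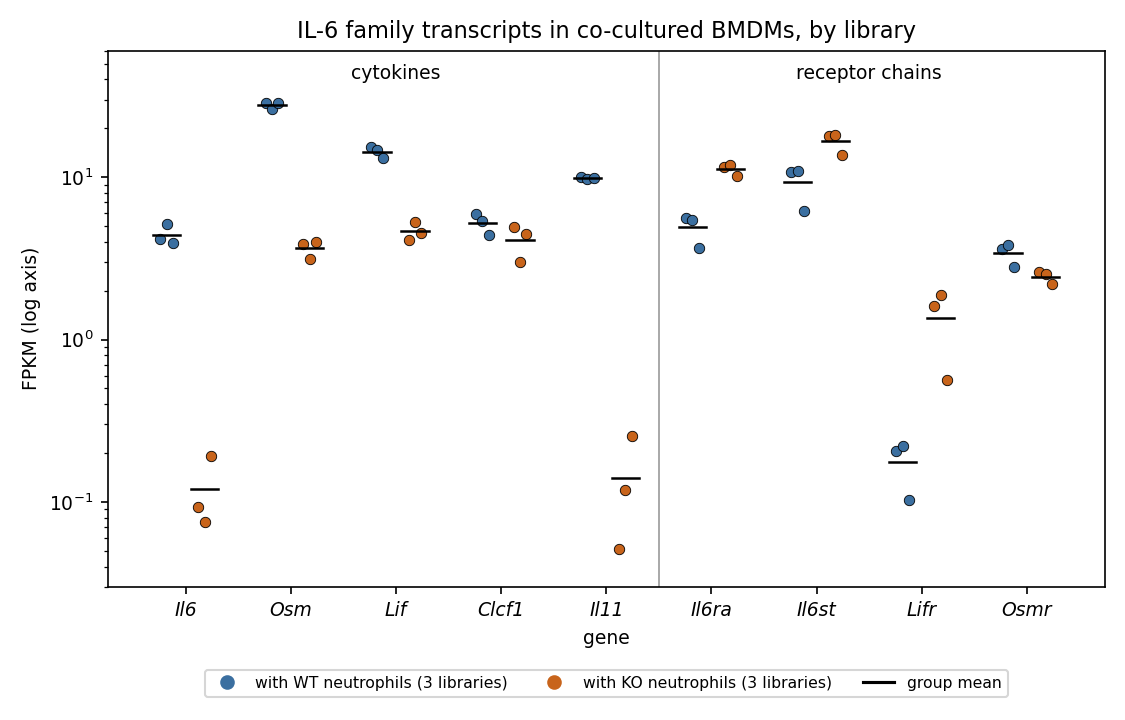
FPKM (log axis) of the 5 cytokine and 4 receptor genes in each of the 6 libraries (points; blue, labelled WT; orange, labelled KO), with group means (lines). *Il6* and *Il11* are at most 0.193 and 0.254 FPKM in the orange libraries, the receptor genes *Il6ra*, *Il6st* and *Lifr* lie higher there, and *Clcf1* overlaps.

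*Il11* (ENSMUSG00000004371, chr7:4772373-4782859, minus strand, GRCm38), whose product acts on stromal, bone and blood-forming cells, had the largest fall of the 9 genes. It stood at 10.1, 9.73 and 9.82 FPKM in the WT-labelled libraries and at 0.0515, 0.118 and 0.254 FPKM in the KO-labelled ones. The first 3 values were almost equal, and the last 3 rested on about 2, 5 and 9 fragments. The log2 fold change was -4.03 (SE 0.14, 95% confidence interval -4.36 to -3.70, adjusted p = 4.44e-06 from limma), and *Il11* ranked 36th from the lowest of the 13367 tested genes.

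*Il6* (ENSMUSG00000025746, chr5:30013114-30019981, plus strand), the inflammatory cytokine that names the family, was also near 0 in the KO-labelled libraries. Its values were 4.17, 5.12 and 3.92 FPKM against 0.0934, 0.0756 and 0.193 FPKM, the latter about 4, 4 and 8 fragments. The groups lay far apart. Its log2 fold change was -2.98 (SE 0.15, interval -3.33 to -2.63, adjusted p = 2.06e-05 from limma). Because the lower values of *Il6* and *Il11* rest on so few fragments, their fold changes depended on the pseudocount, with ranges of -4.38 to -2.26 for *Il6* and -5.46 to -3.25 for *Il11* over the alternatives.

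*Osm* (ENSMUSG00000058755, chr11:4236420-4241026, plus strand) encodes oncostatin M, a product of activated leukocytes. It was the most abundant of the 9 transcripts in the WT-labelled libraries, at 28.5, 26.4 and 28.7 FPKM, and stood at 3.90, 3.11 and 3.97 FPKM in the KO-labelled ones. Each group was tight and well away from the other. This was a 7.61-fold difference of means and a log2 fold change of -2.77 (SE 0.11, interval -3.04 to -2.51, adjusted p = 8.23e-06 from limma).

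*Lif* (ENSMUSG00000034394, chr11:4257557-4272514, plus strand) encodes leukemia inhibitory factor. It lay at 15.3, 14.7 and 13.1 FPKM against 4.08, 5.30 and 4.51 FPKM. All 3 KO-labelled libraries were below all 3 WT-labelled ones, but *Lif* remained clearly detected in them. The means differed 3.10-fold, with a log2 fold change of -1.54 (SE 0.12, interval -1.82 to -1.26, adjusted p = 0.000147 from limma). *Osm* and *Lif* are neighbours on chromosome 11 in the same orientation, 16.5 kb apart with no annotated gene between them.

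*Clcf1* (ENSMUSG00000040663, chr19:4214238-4223490, plus strand), which encodes cardiotrophin-like cytokine factor 1, was the cytokine gene that did not pass. Its values of 5.89, 5.36 and 4.39 FPKM overlapped those of 4.92, 2.98 and 4.47 FPKM. The log2 fold change was -0.32 (SE 0.19, adjusted p = 0.231 from limma), and its interval of -0.78 to 0.13 leaves room for a fall of moderate size.

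*Il6ra* (ENSMUSG00000027947, chr3:89864059-89913196, minus strand), the IL-6-binding chain, was the receptor gene with the firmest rise. It stood at 5.63, 5.41 and 3.65 FPKM in the WT-labelled libraries and at 11.6, 11.8 and 10.1 FPKM in the KO-labelled ones. The lowest value of the second group was well above the highest of the first. The means differed 2.28-fold and the log2 fold change was 1.13 (SE 0.17, interval 0.74 to 1.53, adjusted p = 0.00228 from limma).

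*Il6st* (ENSMUSG00000021756, chr13:112464070-112510086, plus strand), the gp130 chain shared by the whole family, had 10.8, 10.96 and 6.22 FPKM against 18.02, 18.3 and 13.8 FPKM. The groups did not overlap, and the library numbered 3 was the lowest of its group on both sides. The log2 fold change was 0.84 (SE 0.23, interval 0.29 to 1.38, adjusted p = 0.0286 from limma). Median-of-ratios scaling gave 0.62 with an adjusted p of 0.0691 from limma, and without KO replicate 1 or 2 the adjusted p was 0.0903 or 0.0921 from limma.

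*Lifr* (ENSMUSG00000054263, chr15:7090614-7197489, plus strand), the LIF receptor chain, was the lowest of the 9 transcripts in the WT-labelled libraries. It stood at 0.205, 0.222 and 0.102 FPKM there and at 1.60, 1.89 and 0.560 FPKM in the KO-labelled libraries. The groups did not overlap, and replicate 3 was again the lowest on both sides. The log2 fold change was 1.37 (SE 0.31, interval 0.63 to 2.12, adjusted p = 0.0139 from limma), and without KO replicate 1 it was 1.24 with an adjusted p of 0.0528 from limma. Because the WT-side values are so low, the change also depended on the pseudocount, at 2.27 with 0.1 FPKM added and 0.95 with 1 FPKM added, and it passed with both.

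*Osmr* (ENSMUSG00000022146, chr15:6813577-6874969, minus strand), the oncostatin M receptor chain, went the other way from the other receptor genes without passing the test. It had 3.60, 3.801 and 2.79 FPKM against 2.60, 2.52 and 2.19 FPKM. The groups were next to each other without overlapping. On the log2 scale the change was -0.40 (SE 0.14, interval -0.72 to -0.08, adjusted p = 0.0574 from limma). It passed under median-of-ratios and upper-quartile scaling, at -0.59 and -0.47 with adjusted p values of 0.0117 and 0.0354 from limma, and without WT replicate 3, at -0.52 with an adjusted p of 0.0118 from limma. *Osmr* and *Lifr* lie 215.6 kb apart on chromosome 15, with no coding gene between them.

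**Figure D2:**
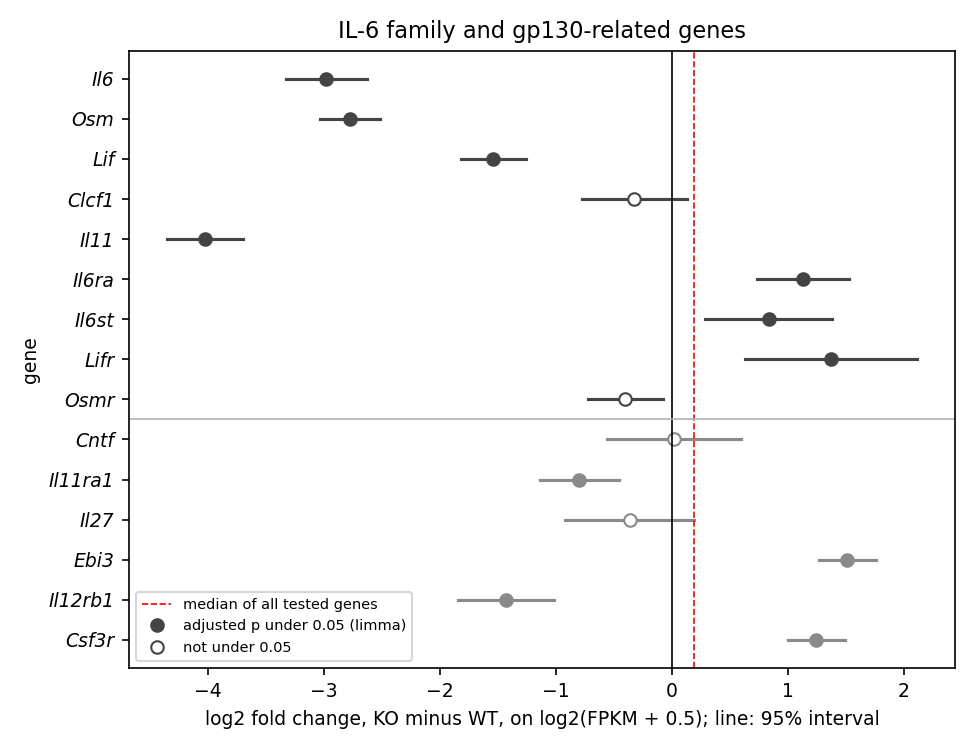
Log2 fold change (KO minus WT, on log2(FPKM + 0.5)) with its 95% confidence interval for the 9 genes (above the grey line) and for the 6 other tested family and gp130-related genes (below it). Filled points passed an adjusted p of 0.05 and the dashed line is the median of all tested genes, 0.19; 4 cytokine genes lie at -1.54 or further left and *Il6ra*, *Il6st* and *Lifr* at 0.84 or further right.

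The libraries numbered 3 were low in long transcripts in both groups. When the tested genes were divided into 4 bins by length, in the bin of the longest, replicate 3 differed from the other 2 libraries by a median of -0.25 (labelled WT) and -0.12 (labelled KO) on the log2 scale, against 0.24 and 0.06 in the shortest bin. The longest coding transcripts of the 4 receptor genes run from 5491 to 9655 bases and those of the 5 cytokine genes from 1847 to 4026 bases. The median log2 fold change between the groups did not follow length, at 0.19, 0.17, 0.19 and 0.20 from the shortest to the longest bin. With both libraries numbered 3 left out, an alternative added after the values were seen, *Il6ra*, *Il6st* and *Lifr* stood at 1.02, 0.71 and 1.65 on the log2 scale, with limma adjusted p values of 0.00061, 0.00101 and 0.00179. *Osmr* then passed at -0.45 (adjusted p = 0.0142 from limma), so 5 of the 9 genes were lower and 3 higher.

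The order of the transcripts within a library was also different. In the WT-labelled libraries, *Osm* stood first by mean FPKM, followed by *Lif*, *Il11*, *Il6st*, *Clcf1*, *Il6ra*, *Il6*, *Osmr* and *Lifr*. The ranges of *Il11* and *Il6st*, of *Clcf1* and *Il6ra* and of *Il6ra* and *Il6* overlapped, so these neighbours could not be put in order. In the KO-labelled libraries, *Il6st* stood first, then *Il6ra*, *Lif*, *Clcf1*, *Osm*, *Osmr*, *Lifr*, *Il11* and *Il6*, with overlapping ranges from *Lif* to *Osm* and between *Il11* and *Il6*.

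In sum, the 5 cytokine transcripts gave 63.9, 61.4 and 59.9 FPKM in the WT-labelled libraries and 13.1, 11.6 and 13.4 FPKM in the KO-labelled ones. The 4 receptor transcripts gave 20.3, 20.4 and 12.8 FPKM against 33.8, 34.5 and 26.6 FPKM. The cytokine sum was above the receptor sum in every WT-labelled library and below it in every KO-labelled library. Its ratio to the receptor sum was 3.62 ± 0.934 and 0.408 ± 0.0856 (SD, n = 3 each). *Osm* made up 45.2% of the cytokine sum on the WT side and 28.8% on the KO side, *Clcf1* 8.43% and 32.3%, and *Il11* 16.0% and 1.10%.

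*Il6*, *Osm* and *Lif* were then set against receptor chains within each library, in 5 pairs. The measure was the log2 ratio of the values with 0.5 FPKM added. *Il11* and *Clcf1* were not paired. These ratios do not depend on the scaling between libraries except through the added 0.5 FPKM, and since they use the values above they are given as a description. *Osm* to *Il6st* was 1.36, 1.23 and 2.12 in the WT-labelled libraries and -2.07, -2.38 and -1.67 in the KO-labelled ones. Thus oncostatin M transcripts outnumbered those of gp130 per length in the first 3 libraries and gp130 transcripts outnumbered them in the other 3. *Il6* to *Il6ra* averaged -0.12 and -4.24, near parity in the first group only, and *Il6* to *Il6st* averaged -0.97 and -4.78. *Osm* to *Osmr* averaged 2.87 and 0.50 and *Lif* to *Lifr* 4.46 and 1.55, so the cytokine stayed ahead of its own receptor chain in all 6 libraries. The groups did not overlap in any of the 5 pairs.

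**Figure D3:**
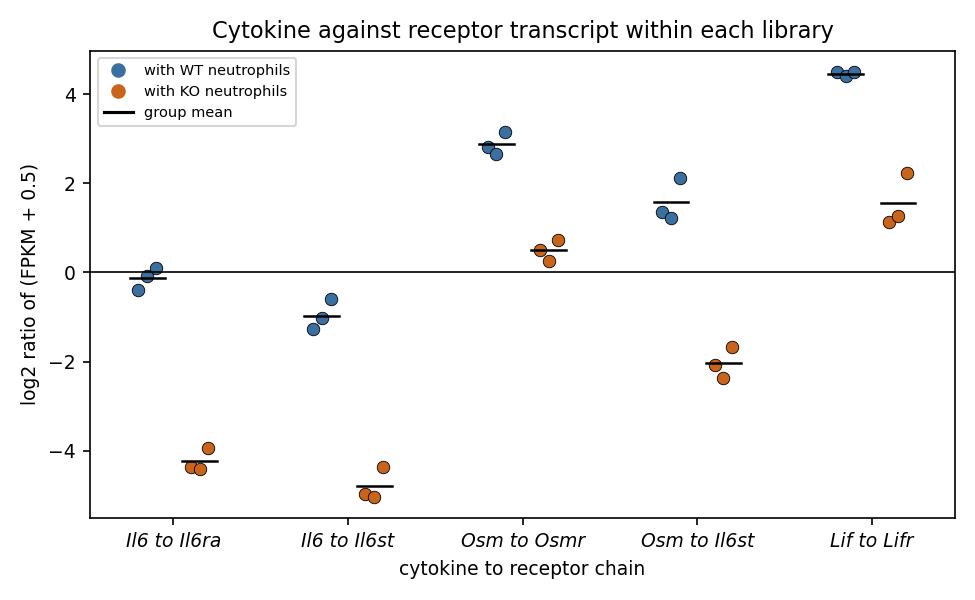
Log2 ratio of cytokine to receptor transcript (FPKM + 0.5) in each library (points; blue, labelled WT; orange, labelled KO) with group means (lines) for 5 pairs. All 5 pairs lie lower in the orange libraries, and *Osm* to *Il6st* crosses from above 0 to below 0.

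Besides the 9 genes, 14 others were listed, some of them from the IL-6 and IL-27 families and others, such as *Csf3r*, *Lepr*, *Il12rb1* and *Il31ra*, encoding receptors that resemble gp130 in sequence but do not contain it. Of these 14, 6 reached the filter, of which 2 were lower, 2 higher and 2 did not pass. Over all tested genes, 10.5% were lower and 27.1% higher. The median log2 fold change of the 6 was -0.17 against 0.19 for all tested genes. *Il11ra1*, the IL-11-binding chain, had 23.2, 22.1 and 31.5 FPKM against 14.3, 13.6 and 15.1 FPKM (log2 fold change -0.80, adjusted p = 0.00549 from limma). The groups did not overlap, so the binding chain for IL-11 was lower where *Il11* was lower, unlike that for IL-6. *Il11ra1* has a near-identical copy, *Il11ra2*, listed at 0 in all 6 libraries, so its level is uncertain. *Ebi3*, the shared subunit of IL-27 and IL-35, rose to 39.1 ± 2.00 from 13.4 ± 1.53 FPKM (SD, n = 3 each, log2 fold change 1.51, adjusted p = 8.96e-05 from limma), whereas its partner *Il27* stood at 1.49 and 1.07 FPKM on average (-0.36, adjusted p = 0.263 from limma). *Csf3r*, the receptor of granulocyte colony-stimulating factor and one of the neutrophil markers above, rose from 7.34 ± 0.887 to 18.01 ± 0.290 FPKM (SD, n = 3 each, 1.25, adjusted p = 0.000205 from limma). *Il12rb1*, a receptor chain for IL-12 and IL-23, fell from 1.84 to 0.365 FPKM on average (-1.43, adjusted p = 0.00103 from limma). Like *Il6* and *Il11*, *Il12rb1* passed the filter only through the WT-labelled libraries, so it had to differ. *Cntf* stood at 0.593 and 0.647 FPKM on average (adjusted p = 0.958 from limma) and overlaps *Zfp91* in the annotation. The other 8 (*Ctf1*, *Cntfr*, *Il27ra*, *Il31*, *Il31ra*, *Il12rb2*, *Csf3* and *Lepr*) were under the filter.

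Inside the cell, the genes that carry the signal were mixed in direction. Of 17 gp130 signal transducers, 2 were lower, 6 were higher and 9 did not pass. These counts were not far from the shares over all tested genes, 10.5% lower and 27.1% higher. Under median-of-ratios scaling 3 of the 17 were lower and 3 higher. The median log2 fold change of the list was 0.29, against 0.19 for all tested genes. *Map2k1*, which encodes the kinase MEK1, and *Jak2*, a kinase bound to cytokine receptors, were lower, at -0.99 and -0.58 on the log2 scale. *Pik3r1*, a regulatory subunit of PI3 kinase, *Stat5b* and *Mapk3*, which encodes ERK1, were higher, at 0.98, 0.67 and 0.65. *Stat3*, the main STAT of this family, had 20.1, 19.97 and 15.7 FPKM against 16.5, 16.3 and 14.6 FPKM, which overlapped (-0.22, adjusted p = 0.197 from limma), though under median-of-ratios scaling it passed at -0.44 with an adjusted p of 0.0208 from limma.

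Of 13 genes of feedback and receptor turnover, 4 were lower and 3 higher, against 10.5% and 27.1% of all tested genes. Their median log2 fold change was -0.07. The lower ones were all of the SOCS family, whose products bind cytokine receptors or JAKs and stop the signal. *Socs1* fell from 7.03 ± 0.692 to 0.788 ± 0.0760 FPKM (SD, n = 3 each, log2 fold change -2.55, adjusted p = 1.38e-05 from limma), *Socs3* from 30.0 ± 2.50 to 8.37 ± 0.393 FPKM (-1.78, adjusted p = 2.56e-05 from limma), and *Cish* had a log2 fold change of -0.83 and *Socs2* one of -0.55. The phosphatase genes *Ptprc*, which encodes CD45, and *Ptpn1* and the STAT inhibitor gene *Pias1* were higher, at 0.70, 0.65 and 0.53, although *Ptpn1* did not pass under median-of-ratios scaling (adjusted p = 0.0644 from limma). The proteases that shed IL-6Rα did not pass, *Adam10* at 0.19 and *Adam17* at -0.38.

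Of 17 genes known to respond to gp130 and STAT3, 11 were lower and 2 higher, against 10.5% and 27.1% of all tested genes. Their median log2 fold change was -0.83. *Fgl2*, which encodes fibrinogen-like protein 2, had 26.5, 26.8 and 27.9 FPKM against 3.54, 3.09 and 3.48 FPKM (-2.84, adjusted p = 3.36e-06 from limma). *Vegfa*, the vascular growth factor, and *Il1rn*, the IL-1 receptor antagonist, had log2 fold changes of -2.49 and -2.11. The 2 higher genes were *Cebpd*, a C/EBP transcription factor, at 1.51 and *Ccnd1*, cyclin D1, at 0.96. Many of these genes answer to other signals too, and the list does not tell gp130 signalling from these. The list was also chosen with earlier results of these data known. It shares *Socs3* with the feedback list, so that gene was counted as lower in both.

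**Figure D4:**
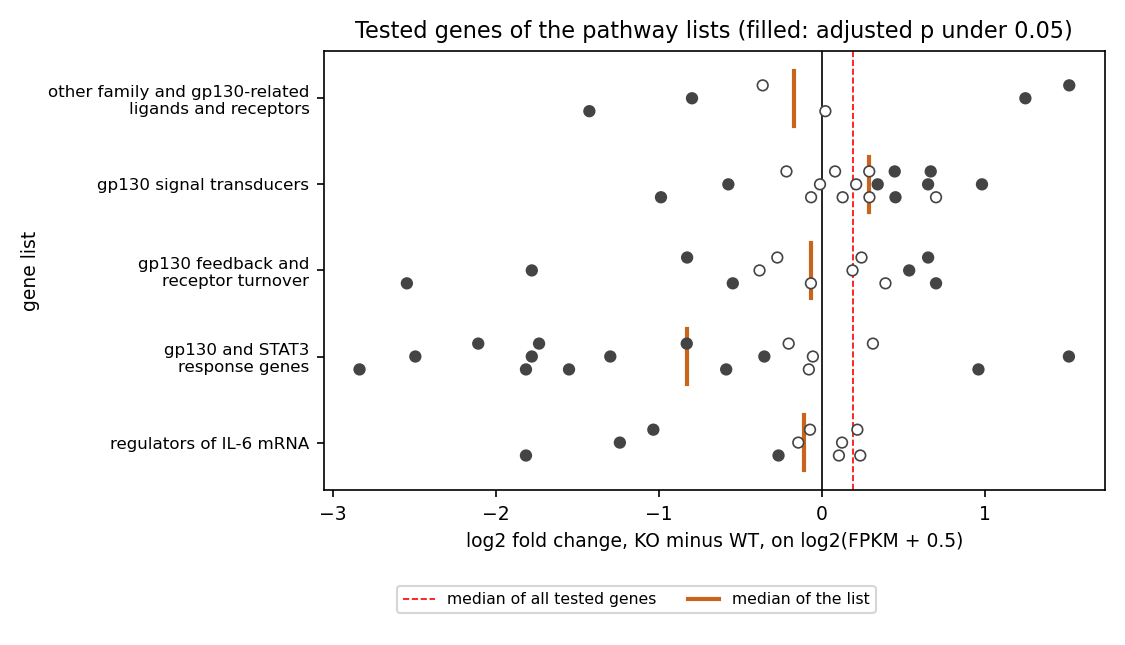
Log2 fold change (KO minus WT) of each tested gene in 5 pathway lists. Filled points passed an adjusted p of 0.05, orange bars are list medians and the dashed line is the median of all tested genes (0.19); the response genes have their median at -0.83 and the signal transducers theirs at 0.29.

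The genes most like each member over the 6 libraries were found by the Euclidean distance between their log2(FPKM + 0.5) profiles, each centred on its mean, for the 6 members that passed and had a mean of at least 1 FPKM. They were *Iigp1* and *Cd300lf* for *Il11*, *Mx2* for *Il6*, *Fgl2* and *Xaf1* for *Osm*, and *Abcb1a* and *AW011738* for *Lif*. Those of *Il6ra* were *Mical1* and *Nid2*, and those of *Il6st* were *Nedd4* and *Nbeal2*. Distances ran from 0.0894 (*Il6st* to *Nedd4*) to 0.373 (*Il11* to *Cd300lf*). A centred profile is mostly set by the difference between the groups, so such neighbours are largely genes of a like log2 fold change. *Iigp1*, *Mx2* and *AW011738* averaged 0.095, 0.407 and 0.282 FPKM in the KO-labelled libraries, so they passed the filter only through the WT-labelled ones. *Iigp1*, *Mx2* and *Xaf1* are genes known to be induced by interferon, but a link of the members to interferon was not tested.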

How the data were processed

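For each library the authors deposited FPKM of 55335 Ensembl identifiers without version numbers, of which 55154 (99.7%) matched GENCODE M21 (GRCm38), used for symbols, positions and lengths. The submitters' processing notes name fastp 0.17.1, HISAT2 2.1.0, DESeq2 1.18.1 and R 3.4.3, and the counting tool, annotation and build are not given in the sources used here. RNA reagents, library kits and sequencers differ between labels and methods. FPKM is relative to the library total, so a change in abundant genes shifts all others. Only 40.2% to 44.0% of low values lay within 0.1 of a whole number of fragments, so counts were not recovered, no count test was run, and fragments per gene are estimates from the longest coding transcript.

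The test was limma 3.58.1 (eBayes with trend, two-sided, no covariates) in R 4.3.3 on log2(FPKM + 0.5), over the 13367 genes whose mean reached 0.5 FPKM, 3 libraries against 3, with Benjamini-Hochberg adjustment. An exact permutation test of 3 against 3 cannot go below 0.1 and was not used. The fit was also run on simulated data, drawn independently for each gene and library. These held no length effect of replicate 3 and no scaling shift, so that run does not test how either affects the calls. The 9 genes, the gene lists and the tests were chosen with earlier results of these data known. Genes named were the 9, tested genes of the list of further family and gp130-related genes, the 3 largest rises and falls that passed in each further pathway list, *Cd177*, and up to 2 nearest profiles per gene. Some genes are not reported here and were left out of the lists. *Socs2*, *Stat3*, *Adam10*, *Adam17* and marker genes were named after their values were seen. Alternatives were other pseudocounts, filters and scalings, a replicate block, a robust variance estimate, the study's threshold, and leaving out each library. Sequences came from RefSeq (GRCm38.p6). Python 3.11.15, pandas 2.3.3, numpy 2.4.6 and matplotlib 3.10.9 were used.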

Additional observations from a re-analysis of the deposited data

How the results depend on the processing

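No direction of a member turned under the alternatives that gave a value. *Il6*, *Osm*, *Lif*, *Il11* and *Il6ra* passed under all 16, *Lifr* under 14 of 15, *Il6st* under 12 of 16, *Osmr* under 5 of 16 and *Clcf1* under none. Without one library, *Il6st* ranged from 0.58 to 0.97, *Lifr* from 1.15 to 1.73 and *Osmr* from -0.52 to -0.32. The members that passed then numbered 4 to 5 lower and 1 to 3 higher.

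Median-of-ratios scaling gave 2259 lower and 2057 higher genes, and the study's threshold, with its fold taken on FPKM + 0.5, gave 592 and 893. *Il6st* had 0.84 (adjusted p = 0.0729 from limma) without a filter and 0.62 (adjusted p = 0.0691) under median-of-ratios scaling. *Osmr* passed under median-of-ratios (-0.59) and upper-quartile scaling (-0.47), with the replicate block (-0.40, adjusted p = 0.0271 from limma) and without both libraries numbered 3 (-0.45). The signal transducers had 3 higher under median-of-ratios scaling. Under the study's threshold they had 0 lower and 0 higher, the further family and gp130-related genes 1 lower, the feedback list 2 lower and 0 higher, and the response genes 1 higher. Without both libraries numbered 3 the IL-6 mRNA regulators had 1 higher. With pseudocounts of 0.1 and 1 the differences were -5.58 and -3.33 for *Il6* to *Il6ra*, -5.24 and -3.07 for *Il6* to *Il6st*, and -3.89 and -2.40 for *Lif* to *Lifr*. The causes were not tested.

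Whether the replicate numbers pair the samples was not settled. The correlations of same-numbered deviations were 0.116, 0.036 and 0.264, and WT replicate 1 correlated best with KO replicate 2. The libraries numbered 3, however, correlated best with each other and negatively with those of other numbers (-0.233 to -0.131). The replicate block gave 5934 passing genes against 5027. Depth limits *Il6*, *Il11* and *Lifr*, whose lower groups rest on 2 to 39 fragments a library.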

Other observations

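Of 10 regulators of IL-6 mRNA, 4 were lower, none was higher and 6 did not pass. Over all tested genes, 10.5% were lower and 27.1% higher. The median log2 fold change of the 10 was -0.11 against 0.19 for all tested genes. *Zc3h12a*, which encodes the RNase Regnase-1 that degrades *Il6* mRNA, had 23.6, 23.3 and 21.5 FPKM in the WT-labelled libraries and 9.04, 8.90 and 10.2 FPKM in the KO-labelled ones (log2 fold change -1.24, adjusted p = 0.000119 from limma). *Arid5a*, whose product protects the same mRNA, had 2.57, 2.49 and 2.11 FPKM against 0.981, 0.804 and 0.943 FPKM (-1.03, adjusted p = 0.000941 from limma). Thus an RNA-degrading and an RNA-protecting regulator were both lower. *Cebpb*, a transcription factor gene for *Il6*, had 431, 421 and 578 FPKM against 125, 117 and 163 FPKM (-1.82, adjusted p = 0.00037 from limma). *Cebpb* is also in the list of response genes, so it was counted as lower in both lists.

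Of the 8 further family and gp130-related genes under the filter, 3 had groups that did not overlap (*Csf3*, *Il12rb2* and *Lepr*), and they were named after their values were seen. When the filter was dropped, 7 of the 8 could be fitted and 1 passed. That gene, *Il12rb2*, had 0.0992, 0.0777 and 0.0146 FPKM against 0.766, 0.686 and 0.438 FPKM (log2 fold change 0.99, adjusted p = 0.00772 from limma without the filter), opposite in direction to *Il12rb1*. *Csf3*, which encodes granulocyte colony-stimulating factor, had 0.1696, 0.617 and 0.225 FPKM in the WT-labelled libraries but read 0 in each KO-labelled one (adjusted p = 0.0652 from limma without the filter). *Lepr*, the leptin receptor gene, had 0.0668, 0.0548 and 0.0630 FPKM against 0.0778, 0.125 and 0.135 FPKM (adjusted p = 0.186 from limma without the filter).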
